A study of Homo sapiens with 6 samples.

Results

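The receptors CD28, CTLA4, ICOS and BTLA were examined, 4 genes taken by symbol from the 59248 gene symbols of the deposited table. They were chosen as a family of costimulatory and inhibitory receptors of T cells, with the difference between the groups already in view, so their changes are given below as a description with no test. RNA was sequenced from the Jurkat line, human leukemic T cells long kept in culture, with 3 libraries from cells of genotype PDCD1^28 OE and 3 from cells of genotype vector. PDCD1^28 is a splicing isoform of PDCD1, the gene of the inhibitory receptor PD-1, that keeps 28 bases of intron 2. The growth protocol calls the cells of both groups Jurkat KO-1, and the labels do not say what KO-1 means, how the construct was delivered or whether a group was 1 clone.

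CD28 family receptors are single-pass membrane proteins with an immunoglobulin-like domain outside the cell and a tyrosine-bearing tail inside it. CD28 binds CD80 and CD86 on antigen-presenting cells and, together with the T-cell receptor, drives cytokine production, survival and metabolism through PI3K, GRB2 and GRAP2. CTLA4 binds the same ligands more tightly and restrains the cell. ICOS, induced on activated T cells, binds ICOSLG and signals mainly through PI3K, and BTLA binds HVEM, encoded by TNFRSF14, and recruits the phosphatases encoded by PTPN6 and PTPN11.

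The libraries held 59911578 to 84220970 estimated counts. In a principal component view the groups parted on component 1 (61.8% of variance), while component 2 (12.1%) held vector replicate 2 away from replicates 1 and 3. PDCD1 had 945, 1059 and 807 estimated counts in overexpression against 14, 18 and 15 in vector; these counts are per gene and hold any PDCD1 transcript, not the isoform alone. T-cell receptor chain genes were abundant in both groups, with CD3E at 396 ± 3.69 CPM in overexpression and 415 ± 10.7 CPM in vector (SD, n = 3). CD4 (82 to 97 against 13 to 56 estimated counts) and CD8A (159 to 186 against 311 to 371) were both low. Of 12 T-cell markers 8 fell (66.7%, against 23.4% of all genes tested) and 2 rose (16.7%, against 22.6%). The largest falls were those of CD2, from 25.6 to 4.32 CPM, and CD7, from 74.4 to 17.5 CPM. The receptor chain genes CD3G, CD247 and TRAC fell, with log2 changes of -0.63 ± 0.06, -0.41 ± 0.05 and -0.64 ± 0.06 (SE). The rises were those of CD4 and TRBC1, and CD3D and CD3E were not called. The summed level of the 12 ran from 2040 to 2080 CPM in overexpression and from 2220 to 2390 CPM in vector. Of 23 markers of other cell types, 12 stayed at or under 12 estimated counts in every library, among them the B-cell marker MS4A1, and the epithelial markers EPCAM and KRT5 and the natural killer marker NCR1 were at 0 in every library. Summed B-cell markers, mostly CD79A, ran from 28.8 to 37.0 CPM in overexpression and from 48.5 to 66.1 CPM in vector. Summed myeloid markers ran from 0.704 to 0.924 against 1.05 to 1.75 CPM, natural killer markers from 1.81 to 2.7 against 0.930 to 2.02 CPM, and epithelial markers from 0.785 to 1.58 against 0.192 to 0.446 CPM. Their part in the differences below was not tested.

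All 4 receptors were lower in overexpression than in vector in the deposited values, and their levels in vector differed widely. CD28, the main costimulatory receptor, had 14104, 13158 and 16800 estimated counts in the vector libraries and 148, 113 and 121 in the overexpression libraries. Each overexpression library lay far below each vector library, and vector replicate 2 was the lowest of its group once scaled. The level was 243, 163 and 248 CPM in vector and 2.28, 1.52 and 1.89 CPM in overexpression. That is 218 ± 47.9 against 1.90 ± 0.381 CPM (SD, n = 3 each), 115-fold lower, with a log2 change of -6.85 ± 0.22 (SE). Without vector replicate 2 the log2 change was -7.04. In bulk libraries, less RNA in every cell and fewer cells that hold the RNA cannot be told apart. CD28 RNA stayed above the floor of 12 estimated counts in each overexpression library.

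ICOS had 340, 253 and 339 estimated counts in vector and 31, 16 and 12 in overexpression. The groups did not overlap, and overexpression replicate 3 lay at the floor. The level was 5.87, 3.14 and 5.01 CPM in vector against 0.477, 0.215 and 0.188 CPM in overexpression, or 4.67 ± 1.40 against 0.293 ± 0.160 CPM (SD, n = 3), a log2 change of -3.99 ± 0.41 (SE). Vector replicate 2 was again the lowest of its group, and without it the log2 change was -4.22. Taking 4 estimated counts as 1 read pair, 233 read pairs in vector stood against 15 in overexpression, a ratio of 15.3. Its exact 95% interval, from 9.09 to 27.8, covers counting error only. The interval pools the libraries of each group and is no test, since ICOS was chosen on this contrast.

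BTLA, an inhibitory receptor, was near the limit of detection. It had 23, 27 and 30 estimated counts in vector and 12, 8 and 10 in overexpression, so every overexpression library lay at or under the floor. The groups did not overlap, at 0.397, 0.335 and 0.444 CPM in vector and 0.185, 0.108 and 0.156 CPM in overexpression. The fitted log2 change was -1.38 ± 0.45 (SE), whose size is uncertain at this floor. On the same reading of the unit, 20 read pairs stood against 8, a ratio of 2.46. Its exact 95% interval for counting error ran from 1.04 to 6.47. This interval too pools the libraries of each group and is no test, since BTLA was chosen on this contrast. The stricter filter and the division of values by 4 left BTLA out of the genes tested.

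CTLA4, the inhibitory counterpart of CD28, had 16, 11 and 5 estimated counts in vector and 0 in all 3 overexpression libraries. A count of 0 allows up to 12 estimated counts, or 0.161 to 0.188 CPM depending on the overexpression library. The vector libraries were at 0.276, 0.136 and 0.0739 CPM, so only vector replicate 1 exceeded that limit. The gene did not pass the expression filter, so no fold is given and a difference was not tested.

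**Figure D1:**
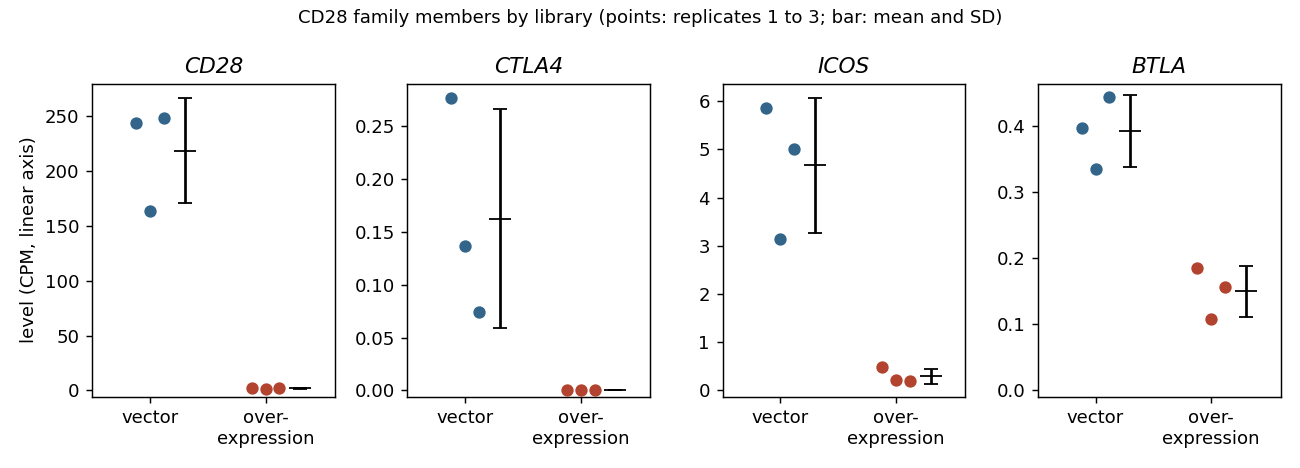
Level of the 4 receptor genes in CPM (linear axes, 1 scale per panel) in the 3 vector and 3 overexpression libraries, with points in the order of replicates 1 to 3 and a bar for the mean and SD. In each panel the overexpression points lie below the vector points, while the scale runs from 248 CPM for CD28 to under 0.5 CPM for CTLA4 and BTLA.

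Of the 4 receptors 3 were tested, and 3 were called lower at an edgeR adjusted p under 0.05, where 23.4% of the 21055 genes tested were called lower and 46.1% were called in either direction. In all 4 the deposited values of the overexpression libraries lay wholly below those of the vector libraries, as in 28.6% of genes tested (58.7% had groups apart in either direction). Since the receptors were chosen on this contrast, nothing is read from these counts. The median log2 change of all genes tested was 0.016.

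To compare levels between genes, CPM was divided by the summed exon length, which is 4885 bases for CD28, 2140 for CTLA4, 2645 for ICOS and 3697 for BTLA. In vector the order was CD28 at 44.7 ± 9.80, ICOS at 1.77 ± 0.528, BTLA at 0.106 ± 0.0148 and CTLA4 at 0.0757 ± 0.0484 CPM per kb (SD, n = 3). The ranges of CD28 and ICOS did not overlap each other or the others, and those of BTLA and CTLA4 overlapped. In overexpression CD28 was at 0.388 ± 0.0779, ICOS at 0.111 ± 0.0605 and BTLA at 0.0405 ± 0.0106 CPM per kb, and the ranges of these 3 did not overlap, though BTLA lay at or under the floor. CTLA4 was listed at 0, which allows up to 0.0753 to 0.0877 CPM per kb depending on the library. Those limits lie above the BTLA values and within the range of ICOS, so the place of CTLA4 in the order was not established. In the deposited values CD28 was lowered by more than ICOS: per kb, ICOS stood at 3.55% to 4.45% of CD28 in the vector libraries and at 18.3% to 38.7% in the overexpression libraries.

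TMIGD2, which encodes a costimulatory receptor that binds HHLA2, and PDCD1 complete the family here. TMIGD2 had 630, 570 and 534 estimated counts in vector and 209, 248 and 151 in overexpression. It fell from 8.61 ± 2.00 to 2.97 ± 0.530 CPM (SD, n = 3; log2 change -1.53 ± 0.22, SE; edgeR adjusted p = 0.000771). Per kb, the summed RNA of the 6 genes ran from 40.4 to 61.0 CPM in the vector libraries and from 8.34 to 10.1 CPM in the overexpression libraries. CD28 made up 81.7% to 85.8% of this sum in vector and 3.17% to 4.64% in overexpression. PDCD1 made up 0.177% to 0.261% in vector and 67.9% to 71.6% in overexpression, and TMIGD2 10.6% to 14.1% and 22.4% to 27.0%. The share of PDCD1 in overexpression is approximate, because the length of the transcript made from the construct was not given in the sources used here. Since PDCD1 is the overexpressed gene and part of the sum, the shares of the other genes in overexpression depend on it. The share of TMIGD2 was higher in overexpression although its level was lower.

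**Figure D2:**
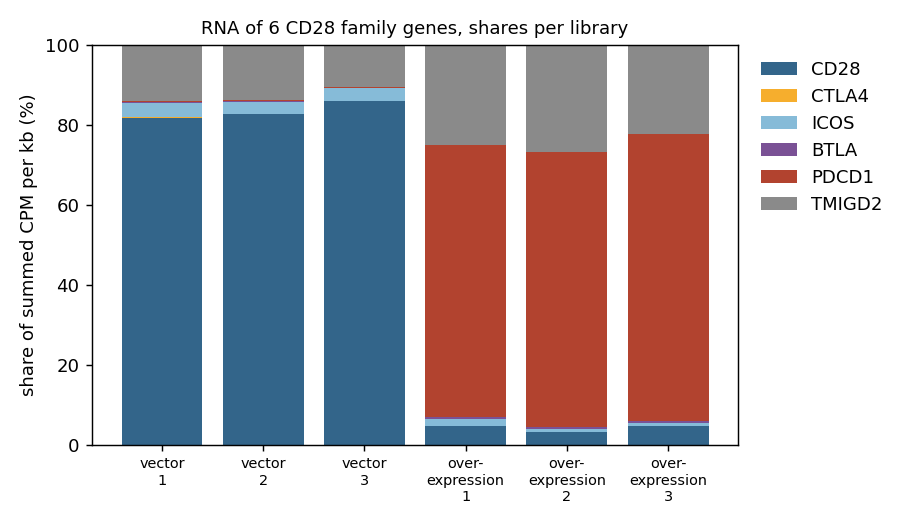
Share of each of 6 CD28 family genes in their summed CPM per kb of exon (%), as 1 stacked bar per library. CD28 holds 81.7% to 85.8% of each vector bar, and PDCD1, the overexpressed gene, holds 67.9% to 71.6% of each overexpression bar.

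CD28, CTLA4 and ICOS lie side by side on chromosome 2 and BTLA lies on chromosome 3. In GENCODE 29 on GRCh38, CD28 spans 203706475 to 203738912, CTLA4 203867771 to 203873965 and ICOS 203936748 to 203961577, all on the plus strand of chromosome 2, with gaps of 128.9 and 62.8 kb between them. BTLA spans 112463968 to 112499561 on the minus strand of chromosome 3. No other gene of this annotation overlaps any of the 4 on either strand. The promoter windows from RefSeq (GRCh38.p14, from 250 bases before to 50 bases after the gene start, read along the gene) are shown because all 4 genes had lower deposited values in overexpression. Capitals mark matches, on either strand, to any of the motifs GGAAA (core of NFAT sites, which also holds the Ets core), TGANTCA (AP-1), TGACG (the repeat unit of cyclic AMP response elements), TGTGGT (RUNX), CCAAT and TATAAA.
CD28, chr2:203706389-203706688: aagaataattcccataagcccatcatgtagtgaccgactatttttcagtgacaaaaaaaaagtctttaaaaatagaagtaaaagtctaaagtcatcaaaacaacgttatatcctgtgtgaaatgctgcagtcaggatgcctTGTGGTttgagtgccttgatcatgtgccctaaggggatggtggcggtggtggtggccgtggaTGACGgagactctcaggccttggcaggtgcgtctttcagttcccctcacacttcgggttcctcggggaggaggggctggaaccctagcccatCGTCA
CTLA4, chr2:203867521-203867820: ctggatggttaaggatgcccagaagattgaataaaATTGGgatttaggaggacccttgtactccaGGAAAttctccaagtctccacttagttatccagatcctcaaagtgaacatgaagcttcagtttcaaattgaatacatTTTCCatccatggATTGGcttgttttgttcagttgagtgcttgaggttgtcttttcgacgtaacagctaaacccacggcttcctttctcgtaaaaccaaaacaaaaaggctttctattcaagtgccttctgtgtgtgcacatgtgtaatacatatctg
ICOS, chr2:203936513-203936812: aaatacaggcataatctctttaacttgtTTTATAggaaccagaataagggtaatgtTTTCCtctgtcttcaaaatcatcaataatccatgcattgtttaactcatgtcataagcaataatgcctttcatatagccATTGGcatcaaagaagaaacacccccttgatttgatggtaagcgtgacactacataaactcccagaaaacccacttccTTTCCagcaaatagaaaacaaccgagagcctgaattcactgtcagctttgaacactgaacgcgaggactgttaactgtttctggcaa
BTLA, chr3:112499423-112499722, minus strand: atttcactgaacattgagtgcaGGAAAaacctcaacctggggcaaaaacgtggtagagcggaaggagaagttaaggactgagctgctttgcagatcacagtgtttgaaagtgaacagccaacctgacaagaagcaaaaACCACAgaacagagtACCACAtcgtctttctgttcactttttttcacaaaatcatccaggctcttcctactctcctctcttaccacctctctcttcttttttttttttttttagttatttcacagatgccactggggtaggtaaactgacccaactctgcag
The windows of CTLA4, ICOS and BTLA held GGAAA, which 61.2% of the 35116 RefSeq promoters of this length hold. In CTLA4 it lay at -185 to -181 and, on the other strand, at -108 to -104, counted from the gene start. In ICOS both matches were on the other strand, at -194 to -190 and -37 to -33. CD28 and BTLA held TGTGGT (13.1% of promoters), in CD28 at -109 to -104 and in BTLA on the other strand, and CD28 alone of the 4 held TGACG (24.6%). CCAAT was matched in CTLA4 and ICOS (34.6%), TATAAA in ICOS on the other strand (11.5%), and the AP-1 letters in none of the 4 (7.71%). The 4 windows held 9, 4, 4 and 3 CG dinucleotides in the order printed, against a median of 14 over all promoters. The GENCODE start lies 164 bases upstream of the RefSeq start in CD28, 15 in ICOS and 89 in BTLA, and the starts coincide in CTLA4. A match in letters does not show that a factor binds, and no match says only that these letters are not in the window.

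Genes next to the receptors included falls and rises. Within 1 Mb of the block of CD28, CTLA4 and ICOS, 9 other protein-coding genes were tested, of which 4 fell (44.4%, against 23.4% of all genes tested) and 2 rose (22.2%, against 22.6%), with a median log2 change of -0.16. The nearest was RAPH1, which encodes a regulator of the actin cytoskeleton and starts at -171.1 kb from the CD28 start. It fell from 1.16 to 0.324 CPM (log2 change -1.84 ± 0.42, SE; edgeR adjusted p = 0.00811). FAM117B, WDR12 (a ribosome biogenesis factor) and CYP20A1 had log2 changes of -1.32 ± 0.06, -0.89 ± 0.05 and -0.85 ± 0.08. ICA1L rose by 0.83 ± 0.15 on the log2 scale and PARD3B, a cell polarity gene on the far side of ICOS, by 1.61 ± 0.26. CARF, NBEAL1 and ABI2, between FAM117B and CD28, had log2 changes of -0.09 ± 0.09, 0.14 ± 0.14 and -0.15 ± 0.08 and were not called. Each of the 9 neighbours had a log2 change smaller in size than that of CD28 or ICOS. Since CD28 and ICOS were chosen on this contrast, nothing is read from that.

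Within 1 Mb of BTLA 14 genes were tested, with a median log2 change of -0.31. Of these 5 fell (35.7%, against 23.4% of all genes tested) and 3 rose (21.4%, against 22.6%). The share of rises at both loci was near that of all genes tested. The count of falls was 3 without vector replicate 1 or without vector replicate 3, and 7 without vector replicate 2. Genes called in all numbered 8507, 8568 and 10868 in these settings, against 9705 with every library. CD96, which encodes a receptor of nectin-type ligands, had the most negative log2 change of these 14, -2.69 ± 0.14, with 10.1 CPM in overexpression against 65.2 CPM in vector. GCSAM, a germinal centre signalling gene, and CFAP44, a cilium gene, had log2 changes of -0.92 ± 0.17 and -0.68 ± 0.07. ATG3, an autophagy enzyme gene that starts 62.5 kb from BTLA, rose by 0.26 ± 0.06, and SLC35A5, beside it, had -0.23 ± 0.08. CD200, which encodes an inhibitory ligand, was at 0 CPM in overexpression and 0.285 CPM in vector and was not tested.

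**Figure D3:**
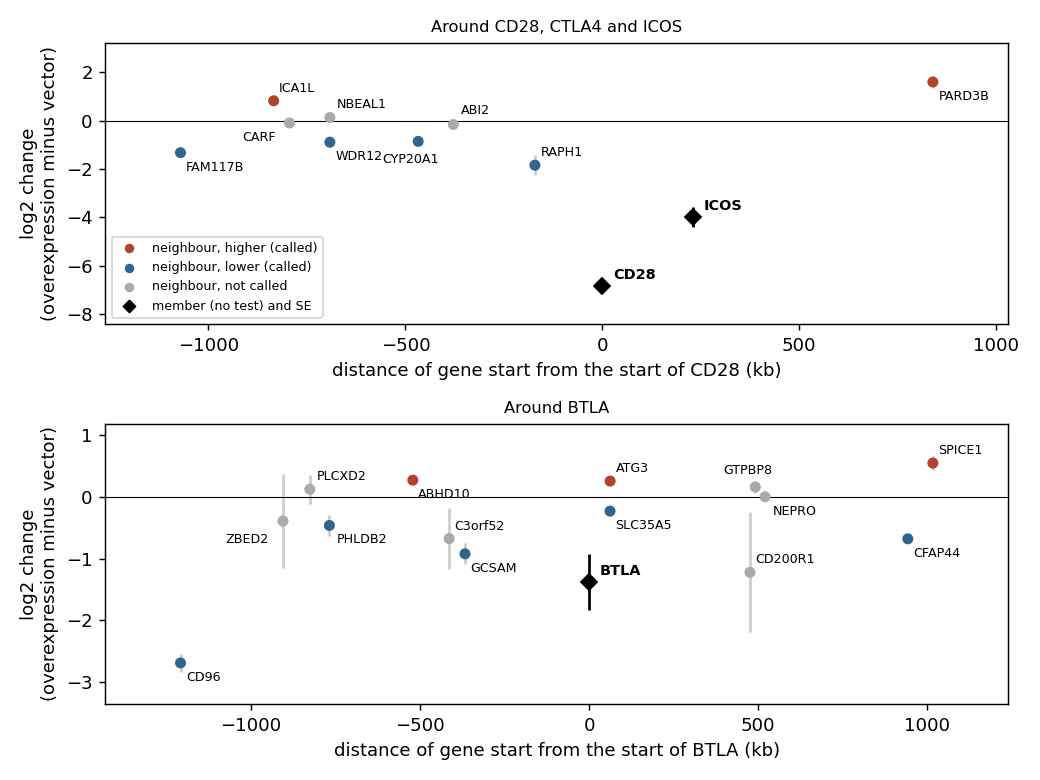
Log2 change (overexpression minus vector, bars SE) of tested protein-coding genes. The horizontal axis is the distance of their start from that of CD28 (top) or BTLA (bottom), in kb. Black diamonds mark the receptors, which were chosen on this contrast. CD28 at -6.85 and ICOS at -3.99 lie below the neighbours on both sides in the top panel; in the bottom panel CD96 lies at -2.69, and the position of BTLA is not a measured size because its overexpression values are at or under the floor.

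Among the ligands, CD86 was far higher in overexpression. Of 10 ligand genes 5 were tested (edgeR). Of these 3 rose (60.0%, against 22.6% of all genes tested) and 0 fell (against 23.4%). There were also 0 falls at an unadjusted p under 0.05, with DESeq2 and with limma-voom. Without overexpression replicate 3 there was 1 fall, ICOSLG (edgeR adjusted p = 0.0465), which the filter then let through. CD86, which encodes the ligand shared by CD28 and CTLA4, had 12, 12 and 18 estimated counts in vector and 308, 314 and 221 in overexpression. It rose from 0.207 ± 0.0587 to 4.14 ± 0.647 CPM (SD, n = 3; log2 change 4.32 ± 0.29, SE; edgeR adjusted p = 1.64e-05), and since 2 of the vector values lie at the floor the size of the rise is uncertain. CD80, the other ligand of CD28 and CTLA4, had 8, 0 and 6 against 6, 6 and 0 estimated counts, under the floor in every library. ICOSLG, the ligand of ICOS, had 2, 2 and 5 in overexpression and 8, 20 and 13 in vector and was not tested. TNFRSF14, the gene of the BTLA ligand HVEM, rose from 6.97 ± 0.580 to 10.1 ± 1.40 CPM (log2 change 0.53 ± 0.15; edgeR adjusted p = 0.0187). That call was lost without overexpression replicate 1 or 3 (adjusted p = 0.0632 and 0.0804) and without vector replicate 1 or 3 (adjusted p = 0.0539 and 0.0661). CD274, the gene of the PD-1 ligand PD-L1, was the third riser, with a log2 change of 1.54 ± 0.36. HHLA2, the ligand of TMIGD2, and VSIR, an inhibitory B7-like gene, were not called, with log2 changes of -0.53 ± 0.47 and 0.55 ± 0.25. VTCN1 and PDCD1LG2 did not exceed 12 estimated counts in any library, and CD276 was listed at 0 throughout.

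HVEM has further partners. LTA, which encodes lymphotoxin alpha, had 351, 178 and 404 estimated counts in vector and 0, 8 and 8 in overexpression, and fell (edgeR adjusted p = 0.000349). All 3 overexpression values lie under the floor, so no fold is given. CD160, another receptor of HVEM, was at 1.73 ± 0.322 CPM in overexpression and 1.64 ± 0.766 CPM in vector and was not called. TNFSF14, the gene of the HVEM ligand LIGHT, had 5 to 23 estimated counts in vector and 7 to 9 in overexpression and was not tested.

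Genes that relay the CD28 and ICOS signal moved in both directions. All 28 on the list were tested, with a median log2 change of -0.18. Of these 11 fell (39.3%, against 23.4% of all genes tested), 5 rose (17.9%, against 22.6%) and 12 were not called. GRAP2, an adaptor that docks on the CD28 tail, had the largest change on this list, with estimated counts of 9327, 10693 and 10790 in vector and 2120, 2254 and 1936 in overexpression (log2 change -2.28 ± 0.08; edgeR adjusted p = 1.54e-06). The vector libraries lay 4.86-fold above the overexpression libraries on average, with no overlap. FLNA, the gene of the actin crosslinker filamin A that binds the CD28 tail, fell from 1144 ± 177 to 555 ± 14.1 CPM. PIK3R3 and AKT1, a regulatory subunit and an effector kinase of the PI3K pathway, had log2 changes of -0.56 ± 0.07 and -0.24 ± 0.04. PRKCQ, a kinase gene of the path from CD28 to NF-kB, had -0.87 ± 0.14.

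The risers among signalling genes included the protease gene MALT1, the kinase gene AKT2 and the Src kinase gene FYN, with log2 changes of 0.46 ± 0.08, 0.29 ± 0.05 and 0.21 ± 0.05. GRB2, the adaptor shared by many receptors, was at 225 ± 4.29 CPM in overexpression and 228 ± 11.6 CPM in vector, and PIK3CD, the catalytic subunit gene typical of leukocytes, at 65.1 ± 3.11 and 64.0 ± 7.44 CPM. Neither was called. Without vector replicate 2 the list had 15 falls and 5 rises, where 10868 genes were called in all, against 9705 with every library.

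The phosphatases that the inhibitory receptors recruit fell together, by small amounts. All 6 genes on this list fell (median log2 change -0.44), where 23.4% of all genes tested fell. All 6 also fell without any 1 library. PTPN6, which encodes SHP-1, fell from 71.7 ± 3.69 to 46.3 ± 2.19 CPM (log2 change -0.63 ± 0.06; edgeR adjusted p = 0.000105), and PTPN11, which encodes SHP-2, by 0.30 on the log2 scale. The PP2A subunit genes PPP2CA, PPP2R1A, PPP2R5A and PPP2CB had log2 changes of -0.46 ± 0.06, -0.44 ± 0.06, -0.45 ± 0.06 and -0.25 ± 0.06.

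CTLA4 cycles between the surface and vesicles. Of 10 genes of this traffic 4 rose (40.0%, against 22.6% of all genes tested) and 3 fell (30.0%, against 23.4%). Their median log2 change was -0.01. ARF1, a small GTPase gene of vesicle budding, fell from 381 ± 8.28 to 232 ± 5.17 CPM, and TRAT1, a T-cell adaptor gene, had a log2 change of -0.87 ± 0.16. DEF6 and AP2M1, the clathrin adaptor subunit that takes CTLA4 from the surface, rose by 0.41 ± 0.08 and 0.29 ± 0.06. PLD1, a phospholipase gene, had 217, 139 and 168 estimated counts in overexpression and 11, 4 and 17 in vector and rose (edgeR adjusted p = 0.000414). LRBA, which protects CTLA4 from lysosomes, was at 109 ± 2.33 and 106 ± 5.68 CPM and was not called.

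Of 18 regulators of the receptor genes or their mRNAs, 7 fell (38.9%, against 23.4% of all genes tested) and 0 rose (against 22.6%). The other 11 were not called (edgeR), and the median log2 change was -0.26. The count of rises was also 0 at an unadjusted p under 0.05, with DESeq2 and with limma-voom, and was 1 with upper-quartile factors. Without vector replicate 2 the counts were 12 falls and 2 rises. In that setting 10868 genes were called in all, against 9705 with every library. MAF, a transcription factor gene of ICOS-expressing helper cells, had 66, 156 and 143 estimated counts in vector and 15, 9 and 6 in overexpression and fell (edgeR adjusted p = 0.000325). BACH2, a repressor gene of effector programs, had a log2 change of -1.04 ± 0.14, and RC3H2, which encodes a Roquin protein that destabilises ICOS mRNA, of -0.64 ± 0.05. NFATC1 and NFATC2, calcium-regulated transcription factor genes, were at 45.2 ± 1.45 and 48.2 ± 0.800 CPM in overexpression against 43.6 ± 13.9 and 56.1 ± 13.0 CPM in vector. GATA3 was at 129 ± 5.07 and 122 ± 6.85 CPM. These 3 genes were not called. FOXP3, which sustains CTLA4 in regulatory T cells, was low in both groups, at 0.764 ± 0.371 and 0.422 ± 0.101 CPM.

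Of 16 genes known to be induced by CD28 costimulation 9 were tested, and the other 7 were too low to test. Of the 9, 5 fell (55.6%, against 23.4% of all genes tested) and 1 rose (11.1%, against 22.6%). Their median log2 change was -0.60. Without vector replicate 2 there were 2 rises, the second being the cyclin gene CCND2 (edgeR adjusted p = 0.0196). In that setting 10868 genes were called in all, against 9705 with every library. CD40LG, a T-cell helper ligand gene, had 3508, 1968 and 3893 estimated counts in vector and 5, 12 and 18 in overexpression (edgeR adjusted p = 1.37e-05). CD69, an early activation receptor gene, fell from 16.8 ± 4.82 to 5.62 ± 0.575 CPM. SLC2A1, the glucose transporter gene, and CPT1A, a fatty acid oxidation gene, had log2 changes of -0.61 ± 0.08 and -1.14 ± 0.18. CCND3, a cyclin gene, rose by 0.42 ± 0.07. BCL2L1, the survival gene classically raised by CD28, was at 108 ± 3.38 and 115 ± 5.55 CPM and was not called. IL2 was at 0 in 5 of 6 libraries and at 8 estimated counts in vector replicate 3, and IL21 and TNFRSF9 were at 0 in all 6.

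**Figure D4:**
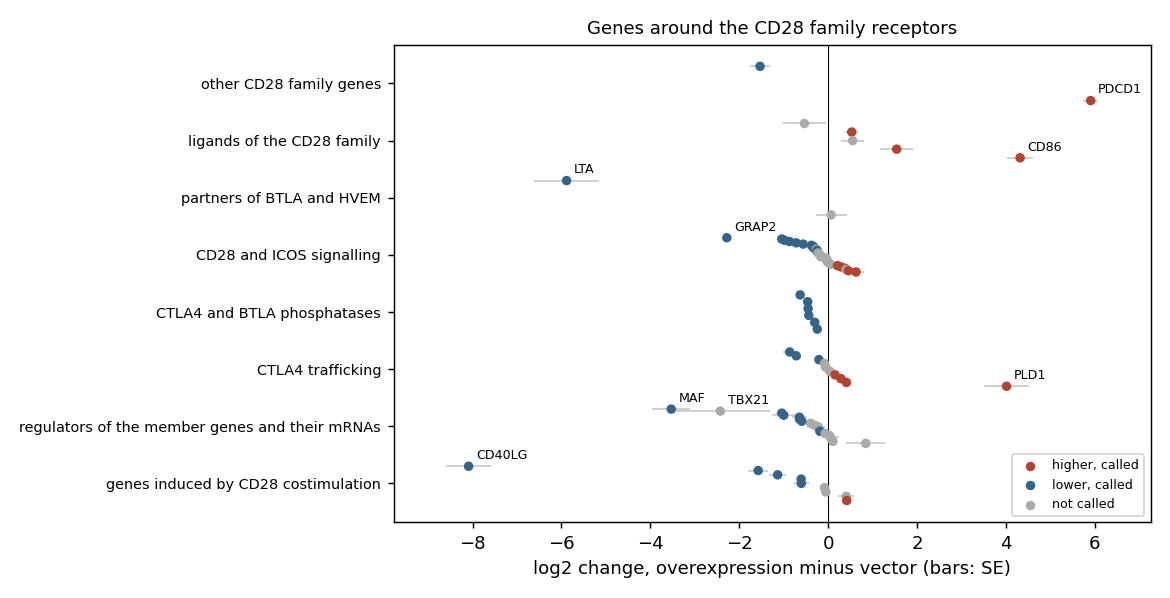
Log2 change (overexpression minus vector, bars SE) of the tested genes on 8 lists around the receptors, coloured by the edgeR call. All 6 phosphatase genes lie to the left of 0, the signalling genes lie on both sides with GRAP2 at -2.28, and CD86 at 4.32 stands apart from the other ligands.

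Over these 8 lists together, 80 of 93 genes were tested, of which 34 fell (42.5%, against 23.4% of all genes tested) and 14 rose (17.5%, against 22.6%). The median log2 change was -0.20 against 0.016 over all genes tested. The 14 rises include PDCD1, the overexpressed gene; without it 13 of 79 rose (16.5%). The lists were chosen with earlier results of these data known, so these shares are a description.

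The genes whose profile over the 6 libraries was most like that of each receptor were ranked by the root mean square difference of log2(CPM + 0.5), each gene centred on its own mean, among 12262 tested genes whose mean reached 100 estimated counts. Groups of 3 libraries set most of this measure, so it is a description. For CD28 the nearest were CD40LG at 0.383, ZBTB16 at 0.563, PI16 at 0.656, SOSTDC1 at 1.02 and SLC18A2 at 1.18. PI16, a secreted peptidase inhibitor gene, was at 59.8 ± 9.22 CPM in vector and 1.10 ± 0.257 CPM in overexpression. For ICOS the nearest included DOK2 at 0.175, CDYL2 at 0.184, CNR2 at 0.189 and COTL1 at 0.199. DOK2, an adaptor gene, was at 41.8 ± 13.9 CPM in vector and 6.40 ± 0.438 CPM in overexpression. The profile of BTLA is flattened by the pseudocount at its low level, and its nearest genes, CDK19, SH3YL1, FUT8, SMYD3 and TLK2, had fitted log2 changes of -0.43 to -0.47. ICOS in overexpression (0.293 CPM) also lies under the pseudocount. The genes named as nearest to ICOS had fitted log2 changes of -2.61 to -3.07, against -3.99 for ICOS. CD40LG, ZBTB16, SOSTDC1 and SLC18A2, near CD28, lie under it in overexpression too (0.173 to 0.443 CPM). These likenesses thus depend in part on the pseudocount. With 2 CPM in place of 0.5, the 5 nearest held 3 of these genes for CD28 and 0 for ICOS and BTLA. With any 1 library left out they held 4 to 5 for CD28, 1 to 4 for ICOS and 1 to 3 for BTLA, so the names for ICOS and BTLA are not stable.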

How the data were processed

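Per the labels, RNA was sequenced from 3 Jurkat libraries overexpressing the PDCD1 isoform and 3 vector libraries. The deposited values were expected counts (estimated counts, all whole numbers) per gene symbol, with library totals left unequal. The submitters' processing notes name fastp 0.23.2, STAR 2.7.10a, StringTie, DESeq2 and build hg38, and the strand setting was not given in the sources used here. In most libraries a value of 4 was more frequent than 3 and 8 more frequent than 7, as if 1 read pair added 4, although 1 was the most frequent value. A floor of 12 estimated counts per library, or 3 read pairs on that reading, was therefore used; it covers counting error only.

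Genes passing edgeR's default filter (edgeR 4.0.16, R 4.3.3) received TMM factors and went into the quasi-likelihood F test, in a model of group alone. Benjamini-Hochberg adjustment ran over all tested genes, with a threshold of 0.05, and SE values of log2 changes were derived from its F values. Levels in CPM use the library size after TMM scaling. The procedure was tested on simulated data with the same spread parameter for every gene. Changes were planted only in genes well above the level of BTLA and CTLA4, so the simulation does not cover genes near the floor.

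The receptors and gene lists were chosen with earlier results of these data known. No p is given for the receptors, since they were chosen with this same contrast in view. Every receptor is named. From each list, called genes are named in order of adjusted p, up to 6 per direction, together with protein-coding neighbours within 1 Mb and, for each receptor, the 5 genes of nearest profile. Members of lists of up to 12 genes are given by their values where they were not called. GRB2, PIK3CD, NFATC1, NFATC2, GATA3, FOXP3, BCL2L1, IL2, IL21, TNFRSF9, CCND2 and CD200 fall outside this rule and were added after their values were seen. The same holds for IL2RA, IL4, IL10 and TNFRSF4. CD8A, given among the T-cell markers, lies beyond the first 6 falls of its list and is outside the rule too. Some genes that the rule names are not reported here. Exon lengths and positions were read from GENCODE 29 (GRCh38, the same assembly as hg38). Promoters came from RefSeq on GRCh38.p14. Alternatives were DESeq2 1.42.0, limma-voom (limma 3.58.1), other scaling factors, no filter or a stricter one (a mean of 1 CPM or more, with 50 or more estimated counts), values divided by 4, the replicate number as a block and each library left out. Figures were drawn with matplotlib 3.10.9. Whether the libraries of a group are separate cultures is not in the labels; p-values thus reflect the spread of these libraries, which may be technical.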

Additional observations from a re-analysis of the deposited data

How the results depend on the processing

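The receptors' log2 changes kept their sign under each alternative that gave a value: without any 1 library they ran from -7.04 to -6.71 for CD28, from -4.52 to -3.76 for ICOS and from -1.56 to -1.19 for BTLA. With the replicate number as a block they were -6.84, -4.03 and -1.40. The correlations of same-numbered libraries' deviations were 0.00521, 0.00125 and 0.023. Whether same-numbered libraries shared a batch is not in the labels. Of 9705 genes called, 3076 had a fitted change of at least 2-fold. Within 2 Mb, 7 genes fell near CD28, CTLA4 and ICOS, and 7 rose and 9 fell near BTLA. Within 1 Mb, falls near BTLA numbered 3 with upper-quartile factors and 3 to 7 with a library left out. Genes called in all numbered 7916 to 10868 with a library left out. Of the 5 genes nearest in profile, 3 (CD28), 0 (ICOS) and 0 (BTLA) were kept with a pseudocount of 2 CPM; with a library left out, 4 to 5, 1 to 4 and 1 to 3 were kept. Among 70 called genes from the lists and windows, 54 of 973 repeats lost the call and 0 reversed; TEC, AP2A1, MYC and PHLDB2 were among the 13 genes concerned. Depth limits BTLA and CTLA4, which lie near the floor.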
